A study of Mus musculus with 10 samples.

Results

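Hoxa7, Hoxb7, Hoxb8, Hoxc8 and Hoxd8 are the mouse Hox genes of paralogue groups 7 and 8. They were taken by gene symbol from RNA-seq count tables of 52636 gene identifiers, and all 5 were found. The cells were from E14, a mouse embryonic stem cell line, moved to medium without LIF and the MEK and GSK inhibitors that hold them in self-renewal, with retinoic acid at a labelled dose of 2 µM for 24 h. Unedited cells (WT, 2 libraries) were compared with cells of the genotype CBE-KO (2 libraries), which lack a binding element for CTCF, a protein that shapes chromatin loops, near enhancers of the HoxA cluster. Both groups received retinoic acid, so the data hold no untreated state. The labels do not say whether CBE-KO is 1 clone or several, and the design text calls the libraries biological replicates without naming their source. The tests below therefore refer to these 4 libraries and cannot be taken to cover variation between clones. The comparison asks how the loss of the element alters gene expression in early differentiation, and here how far paralogues in 4 separate clusters moved alike.

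Hox genes encode homeodomain transcription factors and lie in the clusters HoxA, HoxB, HoxC and HoxD, each on its own chromosome. Paralogues are copies of 1 ancestral gene at matching places in different clusters, and genes are switched on from the anterior end of a cluster to its posterior end. Groups 7 and 8 belong to the trunk genes: they pattern the thoracic spine, ribs and spinal cord, bind DNA together with Pbx and Meis proteins, and respond to retinoic acid and to Cdx factors. Group 7 has members in HoxA and HoxB, and group 8 in HoxB, HoxC and HoxD.

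In RefSeq annotation of GRCm38.p6 (the files' build is mm10, the same assembly, per the submitters' processing notes), Hoxa7 spans bases 52215623 to 52218573 of chromosome 6. Hoxb8 (96279401 to 96285325) and Hoxb7 (96285604 to 96290163) are neighbours on chromosome 11, with 278 bases between their models. Hoxc8 spans 102990539 to 102994275 of chromosome 15, and Hoxd8 spans 74704615 to 74707933 of chromosome 2. The Hoxd8 model overlaps 1 other gene model, Gm38462, which had no row in the count tables, and the other 4 members overlap none. Use of strand in the counting is not given in the sources used here.

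The windows from 250 bases before to 50 bases after the start of 3 members are shown because Cdx factors are known activators of trunk Hox genes. RefSeq held windows for Hoxa7 (chr6:52218524-52218823, minus strand), Hoxb8 (chr11:96281655-96281954, plus strand) and Hoxd8 (chr2:74704365-74704664, plus strand), and Hoxb7 and Hoxc8 were not in the table. The Hoxb8 window belongs to a start at base 96281905, which lies 2504 bases inside the gene model given above, while the other 2 windows start from the ends of their models. Capitals mark matches to TTTATNG, the Cdx sequence searched on both strands, of which a pair of matches may overlap.
Hoxa7: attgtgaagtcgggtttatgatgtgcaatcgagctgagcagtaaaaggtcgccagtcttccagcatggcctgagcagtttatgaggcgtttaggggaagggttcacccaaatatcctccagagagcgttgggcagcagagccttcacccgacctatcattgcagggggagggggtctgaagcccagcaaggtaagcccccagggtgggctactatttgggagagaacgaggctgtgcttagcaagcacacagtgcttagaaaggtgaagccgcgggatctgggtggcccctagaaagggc
Hoxb8: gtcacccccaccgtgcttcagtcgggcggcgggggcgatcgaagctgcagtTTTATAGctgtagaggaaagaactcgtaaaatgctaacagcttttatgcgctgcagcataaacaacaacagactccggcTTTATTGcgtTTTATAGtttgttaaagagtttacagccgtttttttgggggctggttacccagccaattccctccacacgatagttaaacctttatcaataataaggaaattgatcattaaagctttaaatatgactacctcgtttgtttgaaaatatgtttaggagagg
Hoxd8: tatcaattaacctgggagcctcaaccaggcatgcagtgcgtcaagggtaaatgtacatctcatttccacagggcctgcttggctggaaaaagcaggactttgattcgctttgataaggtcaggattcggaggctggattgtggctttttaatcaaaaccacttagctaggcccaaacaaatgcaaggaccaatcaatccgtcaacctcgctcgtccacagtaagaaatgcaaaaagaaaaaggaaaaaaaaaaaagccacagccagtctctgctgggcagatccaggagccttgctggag
The Hoxb8 window held 3 matches, at bases 52, 131 and 141 of the window. At least 1 match was present in 10.9% of the 32851 windows in the table and at least 3 in 0.0639%. These shares are not matched for base composition. G and C made up 42.3% of the Hoxb8 window, 55.7% of the Hoxa7 window and 46.7% of the Hoxd8 window. The Hoxa7 and Hoxd8 windows held none. AGGTCA, a core sequence of retinoic acid receptor sites, occurred once, in Hoxd8 at base 116, against 16.3% of all windows. Neither AGTTCA (14% of all windows) nor TGATTNAT, a sequence bound by Hox with Pbx (3.22%), was found in these 3 windows. These are matches of letters, and binding was not measured.

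The 4 libraries held 14108038 to 15632960 counts, and 16005 genes passed the filter on low counts. Values are CPM, counts scaled to a common library size with trimmed-mean (TMM) factors, and 3 counts, taken as the limit of measurement, correspond to 0.185 to 0.218 CPM. Replicates differed by more than sampling noise (chi-square per degree of freedom of 3.40 for WT and 2.70 for CBE-KO). E14 is a male line, yet the 4 Y-linked genes Ddx3y, Eif2s3y, Uty and Kdm5d summed to 0.822 and 0.728 CPM in the libraries labelled WT, against 129.7 and 128.9 CPM in CBE-KO. The 2 groups therefore also differed in Y-linked expression, and for every member below, the effect of the element cannot be told apart from that of other differences between the lines. Ctcf itself was counted 2419 and 2172 times in WT, against 2505 and 2309 times in CBE-KO.

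All members were higher in both CBE-KO libraries than in both WT libraries, and each rose past the threshold of edgeR's quasi-likelihood test (p adjusted over all genes, under 0.05). Their log2 fold changes ran from 0.89 for Hoxb7 to 6.01 for Hoxc8. By the same rule 21.6% of the genes tested rose and 21.5% fell. Library totals in place of TMM turned the even balance of calls (50.2% of them higher) to 67.0% higher and brought the median change over all genes to 0.11 on the log2 scale. Groups without overlap and with CBE-KO above were found for 36.5% of genes. Hoxa7, Hoxb7 and Hoxb8 passed the low-count filter in both groups. Hoxc8 and Hoxd8 passed only through their CBE-KO libraries, so their place among tested genes already required a difference. For scale, 3.21% of tested genes had a higher log2 fold change than Hoxa7, 8.20% than Hoxb7, 4.58% than Hoxb8 and 0.675% than Hoxd8, and Hoxc8 ranked 9 of 16005. A rise past the threshold with a log2 fold change of at least 1 was found for 6.09% of tested genes, and among the members for all but Hoxb7.

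**Figure D1:**
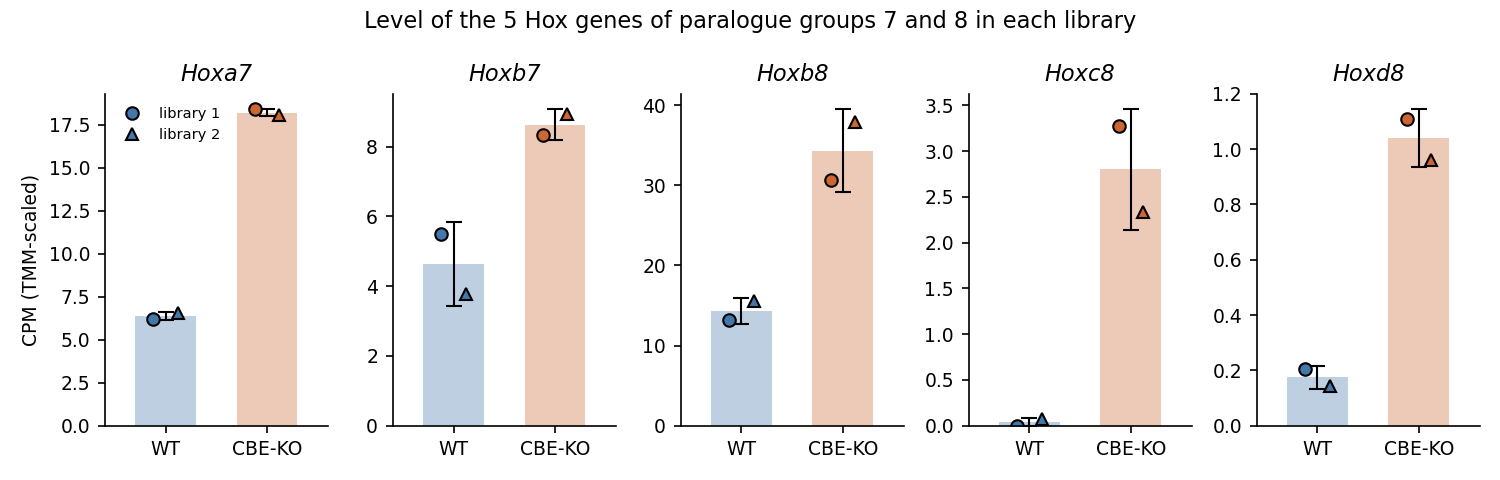
Level of each member in CPM (TMM-scaled, linear axis from 0, a separate scale for each gene) in WT and CBE-KO. Bars are means, error bars SD (n = 2) and symbols the 2 libraries of each group. Both CBE-KO libraries lie above both WT libraries for each of the 5 genes, and Hoxc8 starts from 0 and 1 counts in WT.

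Within group 7, both paralogues were read in WT and rose. Hoxa7 (ENSMUSG00000038236), which acts with Hoxb7 in the patterning of the upper ribs, was counted 91 and 90 times in WT, against 298 and 263 times in CBE-KO. Both WT libraries were low and close together, and the groups did not overlap. The level went from 6.39 ± 0.223 to 18.2 ± 0.203 CPM (SD, n = 2 each) (log2 fold change 1.51 ± 0.14 SE; adjusted p = 1.57e-07 by edgeR). Hoxb7 (ENSMUSG00000038721), a gene also active in the ureteric bud of the kidney, was counted 80 and 52 times in WT, against 135 and 130 times in CBE-KO. Its WT libraries were farther apart than its CBE-KO libraries, with WT library 1 nearer to CBE-KO. The level went from 4.63 ± 1.20 to 8.63 ± 0.436 CPM (log2 fold change 0.89 ± 0.20 SE; adjusted p = 0.00153 by edgeR). Leaving out WT library 1 gave 1.19 and leaving out WT library 2 gave 0.65, both past the threshold.

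Within group 8, only the HoxB paralogue was well above the limit of measurement in WT. Hoxb8 (ENSMUSG00000056648), which acts in the spinal cord and in blood progenitors, was counted 193 and 213 times in WT, against 497 and 552 times in CBE-KO. Its level went from 14.3 ± 1.61 to 34.3 ± 5.17 CPM (SD, n = 2 each) (log2 fold change 1.25 ± 0.12 SE; adjusted p = 1.69e-07 by edgeR). The gap between groups exceeded the gap between the CBE-KO libraries, which stood at 30.6 and 37.9 CPM.

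Hoxc8 (ENSMUSG00000001657), a determinant of thoracic and lumbar vertebrae and of motor neurons to the forelimb, was counted 0 and 1 times in WT, against 53 and 34 times in CBE-KO. It was at or under the limit of measurement in both WT libraries and well read in both CBE-KO libraries, at 3.27 and 2.34 CPM. The ratio of summed counts was 80.2, with an exact 95% interval of 14 to 3200 that covers counting error only. The fitted log2 fold change was 6.01 ± 0.69 (SE), with an adjusted p of 2.07e-06 by edgeR. Its size rests on the single WT count: it was 8.42 without WT library 2, which holds that count, and 5.12 without WT library 1.

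Hoxd8 (ENSMUSG00000027102), which shares roles in the lumbar spine with Hoxb8 and Hoxc8, was the lowest-count member in CBE-KO. It was counted 3 and 2 times in WT, against 18 and 14 times in CBE-KO, so WT was again at the limit of measurement. The ratio of summed counts was 5.90, with an exact 95% interval of 2.28 to 19.4. The fitted log2 fold change was 2.50 ± 0.61 (SE), with an adjusted p of 0.00312 by edgeR. Hoxd8 did not pass in DESeq2, where its adjusted p was 0.0754 at a log2 fold change of 2.54. Levels of different genes were not ranked against each other, since transcript lengths of the counted annotation were not used here.

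Change was next compared between paralogues by the log2 ratio of their counts within each library, which does not depend on scaling. With 2 libraries against 2, an exact permutation test cannot give a two-sided p below 0.333, and none of the 5 pairs tested could pass (adjusted p = 0.416 to 0.667, exact permutation test). The values are therefore sizes with their spread. The log2 ratio of Hoxa7 to Hoxb7 was 0.18 and 0.79 in WT and 1.14 and 1.01 in CBE-KO, with a difference of 0.59 ± 0.31 (SE over libraries). These groups did not overlap, but the gap between them, from 0.79 to 1.01, was smaller than the spread within WT.

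In group 8, which has paralogues in 3 of the clusters, the shifts in ratio were as follows. The log2 ratio of Hoxb8 to Hoxc8 was 8.60 and 7.15 in WT and 3.22 and 4.0 in CBE-KO, with a difference of -4.27 ± 0.82 (SE). Adding 3 to each count in place of 0.5 gave -2.36, since a WT count at 0 makes the ratio depend on the added value. For Hoxc8 against Hoxd8 the ratio was -2.81 and -0.74 in WT and 1.53 and 1.25 in CBE-KO, with a difference of 3.16 ± 1.04 (SE): Hoxc8 had the higher count in both CBE-KO libraries, and in WT both genes were at or under the limit of 3 counts. That difference was 1.93 with 3 added, 2.13 without WT library 1 and 4.199 without WT library 2. Hoxb8 against Hoxd8 gave 5.79 and 6.42 in WT and 4.75 and 5.25 in CBE-KO, with a difference of -1.10 ± 0.40 (SE) that shrank to -0.43 with 3 added. The neighbours Hoxb7 and Hoxb8 had overlapping ratios, -1.27 and -2.02 in WT and -1.88 and -2.08 in CBE-KO. Their difference of -0.33 ± 0.39 (SE) was within the spread between libraries and became 0.045 without WT library 1.

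**Figure D2:**
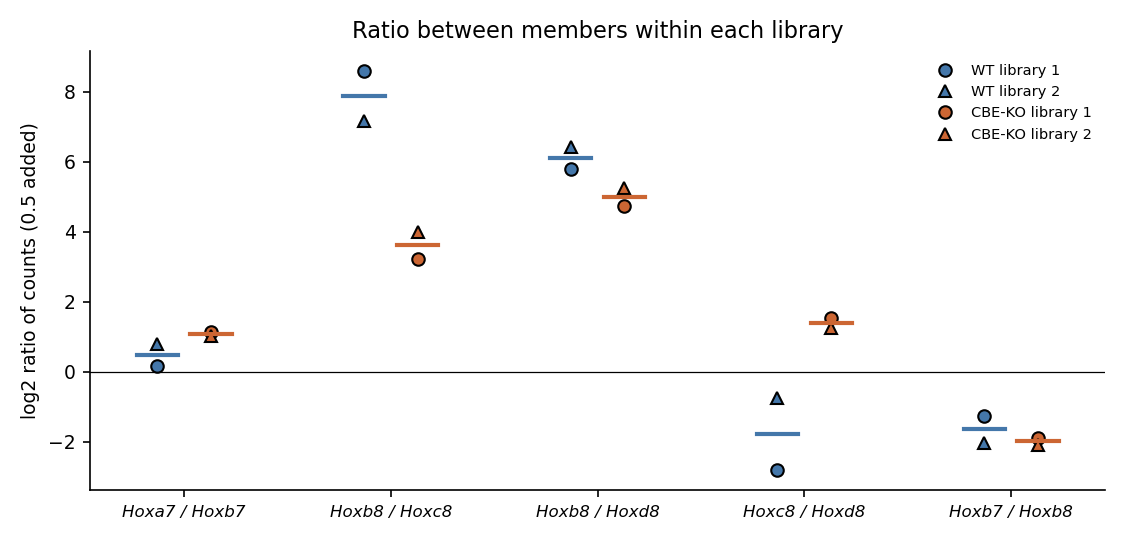
Log2 ratio of the counts of 2 members within each library (0.5 added to each count) for the 5 pairs compared. Symbols are libraries and lines are group means. WT and CBE-KO are apart for 4 pairs and overlap for Hoxb7 and Hoxb8, and only the shift between groups is to be read, since counts are not per length.

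The neighbours of each member along its cluster were read next. Of the 34 Hox genes outside groups 7 and 8, 24 were tested, 17 rose and 7 did not pass, where 21.6% of all tested genes rose. For 5 of them (Hoxc5, Hoxc6, Hoxc9, Hoxc10 and Hoxd13) the low-count filter was met only through the CBE-KO libraries, so their place among tested genes already required a difference, and of the other 19 genes 12 rose. Over the alternatives 15 to 19 of the 24 rose, with 15 in DESeq2. None fell in edgeR, also at an unadjusted p under 0.05, or in DESeq2 on all 4 libraries, and without CBE-KO library 2 Hoxb5 fell by 0.47 on the log2 scale (edgeR adjusted p = 0.0491). In HoxA, Hoxa7 ranked 2 by size of change among 9 tested genes. Its posterior neighbour Hoxa9 ranked above it, counted 44 and 30 times in WT and 182 and 133 times in CBE-KO (log2 fold change 1.97 ± 0.21 SE; adjusted p = 1.13e-06 by edgeR). The anterior neighbour Hoxa6 was counted 14 and 19 times in WT, against 42 and 24 times in CBE-KO, and its difference of 0.87 on the log2 scale did not pass (adjusted p = 0.0685, edgeR) except with library totals (0.0370), without the filter (0.0474) or without WT library 2 (0.0369) or CBE-KO library 2 (0.0420).

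In HoxB, both neighbours of the 2 members rose as well. Hoxb6, on the anterior side of Hoxb7, was counted 251 and 270 times in WT, against 371 and 408 times in CBE-KO (log2 fold change 0.47 ± 0.12 SE; adjusted p = 0.00336 by edgeR; 0.0535 without CBE-KO library 2). Hoxb7 and Hoxb8, at 0.89 and 1.25, differed by less than the spread of their ratio between libraries. Hoxb9, the posterior neighbour of Hoxb8, was counted 217 and 207 times in WT, against 505 and 449 times in CBE-KO (log2 fold change 1.05 ± 0.10 SE; adjusted p = 1.54e-07 by edgeR). By size of change Hoxb8 ranked 2 and Hoxb7 ranked 4 of the 10 tested genes of the cluster.

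In HoxC, the neighbours of Hoxc8 were also near the limit of measurement in WT. Hoxc6 was counted 2 and 2 times in WT, against 58 and 47 times in CBE-KO, and Hoxc9 had 0 and 2 against 43 and 47. Their ratios of summed counts were 24.2 (exact 95% interval from 9.17 to 90.4) and 41.5 (11.2 to 348), so the interval of Hoxc8 overlapped both, and its rank of 1 among 7 tested HoxC genes is not resolved from its neighbours. In HoxD, the neighbours Hoxd4 and Hoxd9 did not enter the test. Hoxd4 was counted 1 and 0 times in WT, against 2 and 4 times in CBE-KO, and Hoxd9 had 3 and 0 against 9 and 17.

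**Figure D3:**
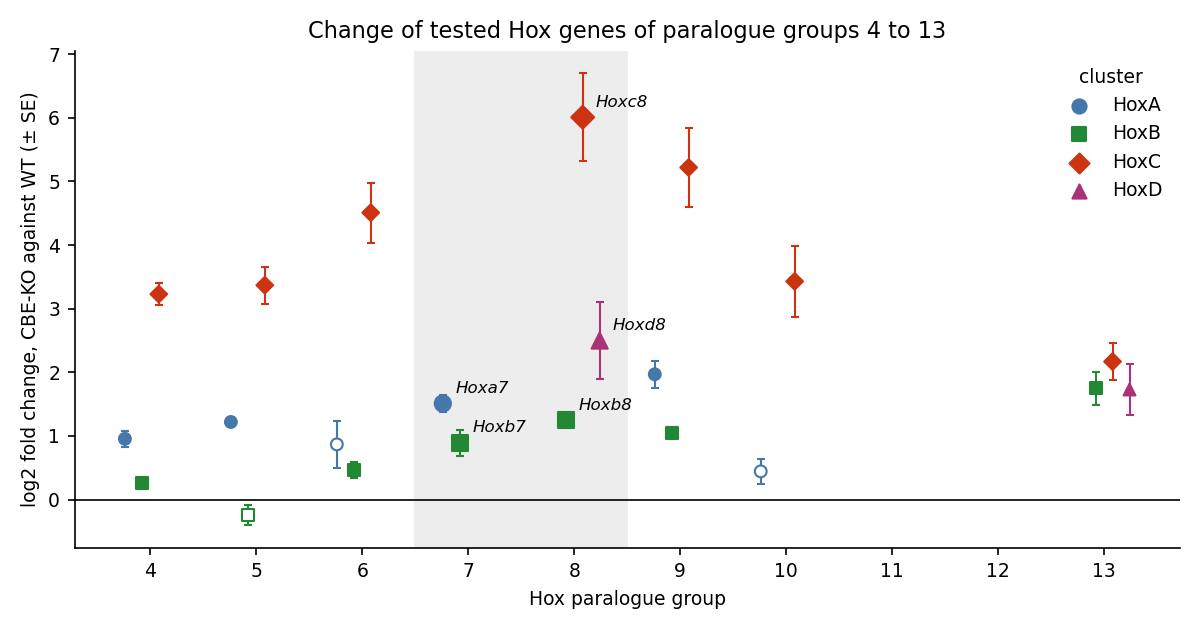
Log2 fold change of CBE-KO against WT (edgeR, error bars SE) for the tested Hox genes of paralogue groups 4 to 13, by cluster. Filled symbols rose at an adjusted p under 0.05, open symbols did not pass, larger labelled symbols are the 5 members in the grey band, and genes with too few counts are not drawn. The 6 HoxC genes from Hoxc4 (3.23) to Hoxc10 lie highest, with Hoxc8 at 6.01, Hoxc13 (2.17) lies below Hoxd8 (2.50), and HoxB values go from -0.24 for Hoxb5, which did not pass, to 1.75 for Hoxb13.

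Proteins that bind DNA with Hox factors were compared as a list. For this list and those below, 21.6% of all tested genes rose and 21.5% fell by the same rule. Of 9 Pbx, Meis and Pknox genes, all tested, 5 rose, 1 fell and 3 did not pass, with a median log2 fold change of 0.45. The 1 that fell was Pbx2, from 190 ± 2.28 to 155 ± 0.839 CPM (SD, n = 2 each). Meis2 went from 28.7 ± 2.67 to 52.5 ± 1.74 CPM and Meis1 from 11.8 ± 1.44 to 20.2 ± 0.778 (SD, n = 2 each). Their log2 fold changes were 0.88 and 0.78.

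Upstream regulators gave mixed directions. Of 10 signals and factors that activate trunk Hox genes, 6 were tested, 3 rose and 1 fell, with a median log2 fold change of -0.09. Wnt8a, a posterior Wnt ligand, fell from 45 and 55 counts to 20 and 21, a log2 fold change of -1.40. Fgf8 and Gdf11, signals of the tail end of the embryo, rose by log2 fold changes of 1.42 and 0.54, and neither passed in DESeq2 (adjusted p = 0.279 and 0.257). Cdx1, singled out after its values were seen because of the promoter matches above, was counted 1783 and 1970 times in WT, against 2567 and 2522 times in CBE-KO (log2 fold change 0.32; adjusted p = 0.000729 by edgeR). The Cdx paralogues Cdx2 (20, 16, 10 and 15 counts) and Cdx4 (6, 7, 4 and 5) were low in all 4 libraries, in the order WT then CBE-KO.

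Polycomb genes, whose products hold Hox clusters silent, also moved both ways: of 17, all tested, 7 rose, 6 fell and 4 did not pass, with a median log2 fold change of -0.05. Ring1, a subunit of the complex that modifies histone H2A, rose by 0.56 (edgeR adjusted p = 0.000159). Cbx8, a chromodomain subunit, rose by 0.66 in edgeR, while DESeq2 gave an adjusted p of 0.208. Both had lower levels than the genes with the largest falls, at 18.1 CPM for Ring1 and 3.65 for Cbx8 in WT. Among the 6 that fell, Eed went from 211 ± 12.5 to 154 ± 7.53 CPM (SD, n = 2 each). Jarid2 went from 616 ± 21.9 to 464 ± 6.69 CPM. The 17 genes summed to 2994 and 3054 CPM in WT, against 2735 and 2663 in CBE-KO.

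Noncoding genes of the clusters were mostly too low to test: 5 of 14 were tested, of which 3 rose and 2 did not pass, and 5 had no count in any library. Hotairm1 was counted 45 and 65 times in WT, against 181 and 165 times in CBE-KO, Hoxaas2 had 25 and 22 against 71 and 74, and Hoxaas3 had 30 and 26 against 57 and 61. Hoxaas3 did not pass in DESeq2 (adjusted p = 0.120). All 3 lie in HoxA, the cluster of Hoxa7. Hoxb5os, the model beside Hoxb7, had 4 and 3 counts against 12 and 10 and did not pass (edgeR adjusted p = 0.0599).

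The miR-196 genes are of interest because miR-196a is known to direct cleavage of Hoxb8 mRNA, and miR-196 sites lie in other members. The mature sequences in RefSeq (GRCm38.p6) share 1 seed, bases 2 to 8, shown in capitals.
miR-196a-5p: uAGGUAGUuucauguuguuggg
miR-196b-5p: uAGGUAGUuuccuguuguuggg
miR-196a-5p comes from Mir196a-1 on chromosome 11 (96265187 to 96265208) and Mir196a-2 on chromosome 15 (102973365 to 102973386), and miR-196b-5p from Mir196b on chromosome 6 (52230129 to 52230150). The gene Mir196a-1 was counted 48 and 46 times in WT, against 75 and 63 times in CBE-KO, and its difference of 0.43 on the log2 scale did not pass (edgeR adjusted p = 0.134). Mir196a-2 and Mir196b had no count in any library. Such counts are reads over the hairpin gene in an RNA-seq library and do not measure the mature miRNA.

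Markers of the state of the cells moved with the members. Of 19 genes of the retinoic acid response, all tested, 14 rose and 4 fell, with a median log2 fold change of 0.88. Cyp26a1, an enzyme that breaks down retinoic acid, went from 178 ± 0.0793 to 579 ± 3.40 CPM (SD, n = 2 each) (log2 fold change 1.70; adjusted p = 3.57e-14 by edgeR). Of 12 pluripotency markers, 11 were tested, 7 fell and 2 rose, and their summed level was 5803 and 5646 CPM in WT and 4399 and 4457 CPM in CBE-KO. The largest drop in CPM was that of Utf1, from 756 ± 38.2 to 237 ± 16.1 (SD, n = 2 each). Pou5f1, a core pluripotency factor, also fell and was still at 816 ± 1.42 CPM in CBE-KO against 1030 ± 79.7 in WT. The 2 that rose were Nanog, from 808 ± 2.83 to 896 ± 16.7 CPM, and Tfcp2l1, from 234 ± 20.9 to 262 ± 6.23. Esrrb and Tbx3 did not pass.

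Markers of other cell types were read in the same way. Neural markers summed to 112.3 and 102.4 CPM in WT and 109.9 and 109.1 in CBE-KO, with 5 of 7 tested higher and 1 lower. That sum joins opposite moves. Tubb3, most of it in WT, was the 1 lower and went from 69.4 ± 6.91 to 40.8 ± 0.572 CPM (SD, n = 2 each). Sox3, among the 5 higher, went from 12 ± 0.235 to 32.6 ± 0.469 CPM. Extraembryonic endoderm markers summed to 209.4 and 218.8 CPM in WT and 269.7 and 274.5 in CBE-KO, with 6 of 9 tested higher and none lower at an adjusted p under 0.05. Mesoderm markers summed to between 17.75 and 20.59 CPM in all 4 libraries, most of it Eomes (mean of 12.5 CPM in WT and 13.2 in CBE-KO). In edgeR 1 of 6 tested rose. This was Kdr, counted 6 and 6 times in WT, against 15 and 22 times in CBE-KO. Kdr did not pass in DESeq2 (adjusted p = 0.229). Fibroblast markers summed to 196.7 and 193.8 CPM in WT and 228.2 and 224.5 in CBE-KO, with 3 of 4 tested higher in edgeR. Most of that sum was Fbln1, at 169 ± 4.8 CPM in WT and 185 ± 4.1 in CBE-KO (SD, n = 2 each). In DESeq2 Fbln1 and Col1a1 did not pass (adjusted p = 0.227 and 0.0556), and Pdgfrb did (5.5e-05). Of the 5 fibroblast markers too low to test, Col1a2 was counted 0 and 1 times in WT, against 12 and 8 times in CBE-KO, Col3a1 had 0 and 0 against 8 and 1, and Postn, Dcn and Lum were at 0 in every library. The part of these shifts in the change of the 5 members was not tested. In bulk RNA, more cells that express a Hox gene and more RNA per cell cannot be told apart.

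Other genes had profiles close to those of the members. Likeness was the Euclidean distance of centred log2 CPM over the 4 libraries, and up to 2 of the closest genes are named for each member. About 2 counts were added before the log, which shrinks the changes of low-count genes. A small distance is therefore not an equal fold change: Cpe, named below, rose by 1.91 on the log2 scale and Hoxd8 by 2.50. Ttc21b and 4932412D23Rik were closest to Hoxa7 (distances of 0.0635 and 0.0777), and Tcp11l1 and Pkia to Hoxb7 (0.0583 and 0.0674). Gm21037 and Pdlim3 were closest to Hoxb8 (0.0240 and 0.0555), and Cpe to Hoxd8 (0.0958). These profiles are common in 4 libraries: 439 genes lay within 0.5 of Hoxa7, 1046 of Hoxb7, 591 of Hoxb8 and 165 of Hoxd8. Hoxc8 had 1 such gene, Zfy1, a Y-linked zinc finger gene at a distance of 0.297, and then Xlr at 0.527. Zfy1 had 0 and 0.07 CPM in WT and 3.76 and 3.02 CPM in CBE-KO.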

How the data were processed

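RNA-seq counts were used from 2 WT and 2 CBE-KO libraries, grouped by sample title. Capture-C samples were left out (6, not analysed here). The deposited values are raw read counts per Ensembl gene, with no normalization, as the values show. The submitters' processing notes list HISAT2 2.1.0, HTSeq 0.9.1, DESeq2 1.18.1, Bowtie2 2.3.1 and the build mm10, with no role stated. Symbols were matched for 52403 of 52636 identifiers. Genes were filtered with filterByExpr, scaled by TMM and tested with edgeR 4.0.16 (R 4.3.3; glmQLFit, glmQLFTest, two-sided, no covariate), with Benjamini-Hochberg adjustment over 16005 genes and a threshold of 0.05. Code was tested on simulated data. Intervals of count ratios are exact conditional binomial intervals on the summed counts of each group. They cover counting error only and leave out the spread between libraries. Reads carry no molecular identifiers. Ratios between paralogues had 0.5 added and an exact permutation test (scipy 1.17.1), adjusted over 5 pairs. Named genes were the members, adjacent Hox genes, up to 3 genes per list with the largest called change and no overlap, the 2 closest profiles, and checks (Ctcf, Xist, Y-linked genes, Cyp26a1, Pou5f1). Some genes that this rule takes are not reported here. Xist was counted 117 and 132 times in WT, against 73 and 116 times in CBE-KO. The members and lists were chosen with earlier results of these data known. Alternatives were DESeq2 1.42.0, other scalings, filters, moderation and thresholds, a replicate block, and each library left out.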

Additional observations from a re-analysis of the deposited data

How the results depend on the processing

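Hoxa7, Hoxb7, Hoxb8 and Hoxc8 rose past the threshold under all 12 alternatives, with log2 fold changes of 1.48 to 1.62, 0.65 to 1.19, 1.10 to 1.40 and 5.12 to 8.42. Hoxd8 rose in 10 of 11 (2.29 to 2.77), failed in DESeq2 (2.54, adjusted p = 0.0754; over the alternatives adjusted p = 0.00116 to 0.0754), and had too low a mean for the filter of 1 CPM. The cause was not tested. Over all genes edgeR called 6895, DESeq2 4146 with its own filter, and edgeR 1383 when the log2 fold change also had to reach 1 in size. Counts without 1 library ran from 5385 to 6500, the lone library being assumed to vary like the others. The difference between Hoxb7 and Hoxb8 ran from -0.714 to 0.045 without 1 library, and that sign change came from leaving out WT library 1. The other 4 pairs kept their sign. Same-numbered libraries shared only a number (correlation of deviations 0.0346 over genes). With the replicate block 7027 genes were called, and the members had log2 fold changes of 1.51, 0.90, 1.25, 6.01 and 2.50 in the order of the list, all called. The pair differences were unchanged by construction. Depth limits Hoxc8 and Hoxd8, which had at most 3 counts in each WT library.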
